A study of Mus musculus with 2 samples.

Results

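Somitic mesoderm is the paraxial tissue beside the neural tube that has just been divided into segments, and its cells were examined here in the droplet-based scRNA-Seq libraries of Gata1 chimeric mouse embryos. A cell was counted as somitic when it held at least 3 spliced UMIs (unique molecular identifiers, each standing for 1 captured transcript) of Meox1 and at least 3 of Tcf15. Its Tbx6, Dll3 and Hes7 UMIs had to sum to less than 8, and Hba-x, Hbb-bh1 and Hbb-y together to less than 0.5% of its spliced UMIs. The rule held for 628 of 18233 cells. These were 299 of 8981 tdTom+ cells (3.33%, 95% exact Clopper-Pearson interval 2.97 to 3.72) and 329 of 9252 tdTom- cells (3.56%, 3.19 to 3.95). The cells were thus selected on their Meox1 and Tcf15 levels, both transcription factors of the paraxial lineage, and those levels (642 and 747 CPM in tdTom+, 721 and 783 CPM in tdTom-) are a description only. CPM stands for spliced UMIs of a gene in each 1000000 spliced UMIs of the summed cells. In GRCm38 Meox1 (ENSMUSG00000001493) lies at chr11:101877510-101894374, Tcf15 (ENSMUSG00000068079) at chr2:152143561-152149097 and the marker Foxc2 (ENSMUSG00000046714) at chr8:121116171-121118895. Where a pair of values follows, the tdTom+ value stands first.

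The embryos were made by injecting tdTom+ embryonic stem cells (ESCs) without functional Gata1, a blood transcription factor encoded on the X chromosome, into wildtype C57BL/6 blastocysts. The ESCs came from 1 targeted male clone and carried an always active tdTomato at ROSA26. The host cells carried neither the reporter nor the Gata1 deletion. Whole embryos, 6 in number, were pooled and sorted into the tdTom+ and tdTom- fractions, and each fraction gave 1 library. The titles of both samples give E8.5, while the age label of the tdTom- sample reads E8.6. By the design all tdTom+ cells descend from the targeted ESCs, so genotype, sex, ESC origin and library cannot be told apart in any difference between the fractions. With 1 library per fraction no test was possible, and every interval below covers counting error only.

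Somites bud off in pairs from the front end of the presomitic mesoderm, where a clock of Notch, Wnt and Fgf signalling genes cycles until Tbx6 and Mesp2 mark the next boundary. Presomitic cells behind it are kept immature by Fgf, Wnt and retinoic acid breakdown, while the somites themselves make retinoic acid. Each new somite has a front side marked by Tbx18 and a rear side marked by Uncx. It later splits into sclerotome, the source of vertebrae and ribs, and dermomyotome, the source of muscle and dermis.

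The 299 tdTom+ somitic cells held 5716848 spliced UMIs with a median of 16592 per cell, and the 329 tdTom- cells held 5859374 with a median of 15549. Cells ranged from 3183 to 59647 and from 3062 to 65017 spliced UMIs. Unspliced UMIs made up 13.7% and 14.1% of all UMIs, and mitochondrial UMIs averaged 1.97% in both fractions. Scrublet, a caller of doublets run within each library, marked 22 tdTom+ (7.36%) and 23 tdTom- (6.99%) of the somitic cells, and 4.40% and 5.77% of all cells. The libraries shared 18 cell barcodes, of which 0 belonged to somitic cells. Over all cells Gata1 was at 6.73 and 29.3 CPM of spliced UMIs, while its unspliced UMIs numbered 1532 and 413. The tdTomato sequence was listed at 0 UMIs in both libraries, so it could not check the sort.

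The limits of the rule fell within a continuous range. A Meox1 or Tcf15 count of exactly 3 was found in 38 tdTom+ and 34 tdTom- members. A further 39 and 34 cells met every other limit and had 2 as the lower of both counts. Foxc2 stood at 138 and 158 CPM in the cells at 3, against 110 and 144 CPM in the cells at 2. Presomitic UMIs kept out 21 tdTom+ and 41 tdTom- cells that passed on Meox1 and Tcf15, and globin UMIs kept out 8 and 11.

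Foxc2, a forkhead factor and a marker of somitic mesoderm not used by the rule, checked the name of the cells. Foxc2 stood at 167 and 178 CPM. A Foxc2 UMI was found in 87.0% and 87.5% of the somitic cells, against 3.70% and 3.89% of neural cells (at least 3 Sox2 UMIs and at least 3 of Sox1 and Pax6), whose median depth was 20792 and 18185. The cells thus carried the marker in both fractions at a share far above that of cells that should lack it. In mesoderm with Tbx1 and Twist1, described below, Foxc2 stood at 89.4 and 109 CPM, and somitic cells were 0.90 (0.70 to 1.11) and 0.71 (0.52 to 0.91) log2 units higher, under 2-fold. Its relative Foxc1 stood at 96.2 and 112 CPM, in 81.9% and 78.4% of somitic cells.

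Abundant transcripts of the gene lists included those of a chromatin protein, a secreted inhibitor, a retinoic acid enzyme and a pair of transcription factors. Hmga2, a chromatin protein of embryonic cells, stood at 672 and 717 CPM. Fst, the activin antagonist follistatin, stood at 468 and 417 CPM. Aldh1a2, which makes retinoic acid, stood at 421 and 493 CPM. Twist1, a basic helix-loop-helix factor of mesenchyme, stood at 396 and 355 CPM, and Foxd1, a forkhead factor, at 284 and 299 CPM. Twist1 was found in 97.0% and 94.2% of the cells. Of these genes Aldh1a2 alone was past 2-fold against the mesoderm with Tbx1 and Twist1 described below, where Hmga2 differed by 0.10 and 0.05 on the log2 scale, Fst by 0.34 and -0.14, Foxd1 by 0.37 and 0.05, and Twist1, which chose those cells, by -0.24 and -0.64.

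Genes of the later somite compartments were present at unequal levels. Pax3, the dermomyotome factor, stood at 68.6 and 81.1 CPM. Meox2 stood at 40.1 and 46.9 CPM, Dmrt2 at 29.4 and 36.4 CPM, and Sim1 at 18.0 and 21.3 CPM. Eya1 had 86 and 121 UMIs. Of the same list, 4 genes were scarce, with 3 and 9 UMIs of Pax7, 11 and 3 of Alx4, 17 and 21 of Lbx1 and 16 and 62 of En1. Against all other cells of the same fraction Pax7 differed by -1.99 and -0.96 on the log2 scale and En1 by -1.98 and -0.72. Lbx1, though scarce, was 3.78 and 4.22 log2 units higher than in those cells, and Alx4 differed by 1.12 and -0.42. Of the sclerotome list, Sox9 stood at 44.1 and 40.4 CPM and Col2a1, a cartilage collagen, at 49.3 and 39.1 CPM. Pax1, the classical sclerotome factor, had 8 UMIs in all tdTom+ and 9 in all tdTom- somitic cells, and Nkx3-2 had 2 and 0. Myf5, the first of the muscle factors to appear in somites, had 32 and 26 UMIs, and Myod1 had 1 in each fraction.

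**Figure D1:**
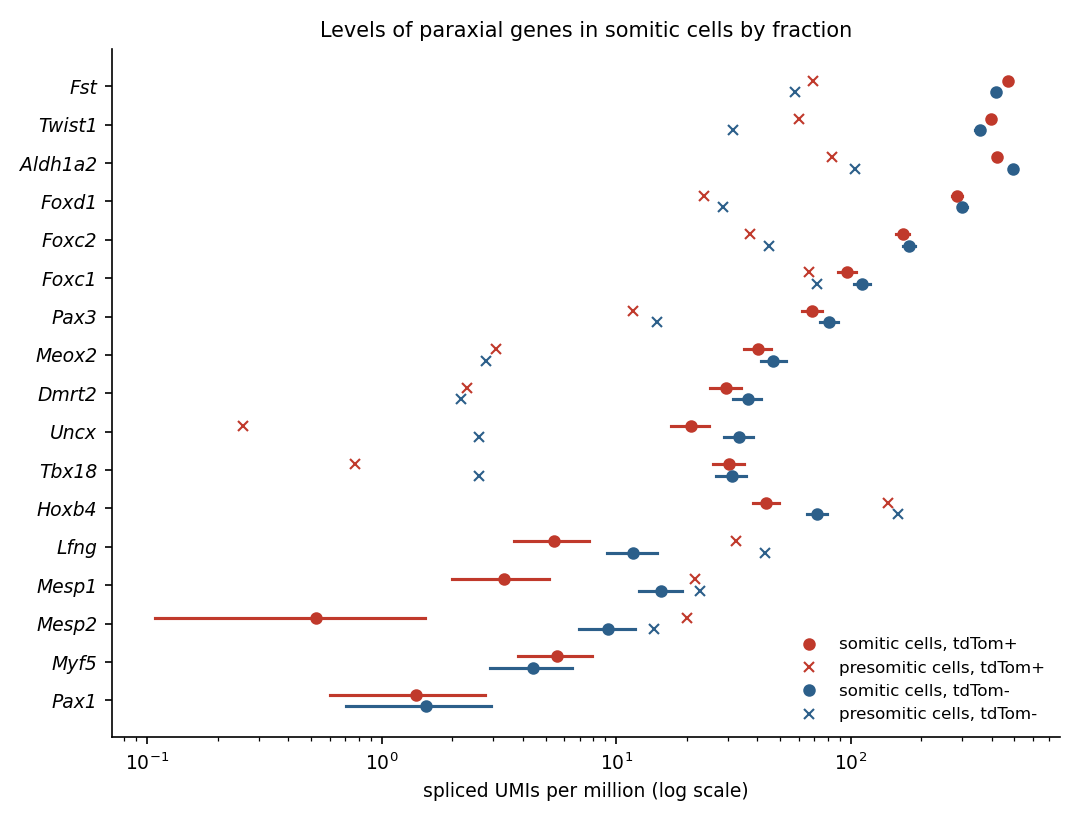
Level in CPM on a log axis for 17 genes of the paraxial lineage. Filled points are the summed somitic cells of each fraction with exact Poisson 95% intervals, red for tdTom+ and blue for tdTom-, and crosses are presomitic cells, drawn only where at least 1 UMI was found. Mesp2 shows the widest gap between the fractions, at 0.525 and 9.22 CPM.

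To compare cells at one depth, each was thinned to 8000 spliced UMIs, which left out 13 tdTom+ and 14 tdTom- somitic cells that were shallower. Then 44 of 286 tdTom+ cells kept at least 2 Pax3 UMIs (15.4%, 11.4 to 20.1), as did 58 of the 315 tdTom- ones (18.4%, 14.3 to 23.1). Without thinning the shares were 33.4% and 36.5%. Neural cells, which express Pax3 in the dorsal neural tube, gave 8.84% and 7.02%, and presomitic cells 1.07% and 1.11%. A Myf5 UMI remained in 3.50% of tdTom+ and 2.54% of tdTom- somitic cells, against 0 of 215 and 1 of 484 neural cells. Pax1, Pax9 and Nkx3-2 together reached 2 UMIs in 3 of 286 tdTom+ cells (1.05%, 0.217 to 3.03) and 0 of 315 tdTom- ones, a count that allows a share of up to 1.16%. Neural cells reached 2 in 1 of 215 and 0 of 484. Without thinning 4 of 299 (1.34%, 0.366 to 3.39) and 2 of 329 (0.608%, 0.0737 to 2.18) somitic cells did. The intervals of the fractions overlapped for each of these shares.

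Unspliced molecules differed widely between genes and little between fractions. In Foxc2, which has a single exon, 0 of 957 tdTom+ and 0 of 1043 tdTom- UMIs were unspliced, and in Tcf15 they made up 0.117% and 0.109%. In Pax3 they made up 51.7% and 52.2%, in Sim1 65.8% and 67.7%, and in Meox2 63.0% (59.1 to 66.8) and 56.8% (52.9 to 60.7). For Aldh1a2 the values were 9.62% and 8.75%.

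The genes furthest above all other cells of the same fraction included Dmrt2, Meox2, Wfdc21 and Uncx. This contrast is the one the rule itself drew, so its folds are descriptions. Of the genes with at least 100 UMIs in either group, 3.0% were at least 2-fold higher in tdTom+ somitic cells and 2.96% in tdTom- somitic cells, while 12.3% and 12.9% were at least 2-fold lower. Dmrt2, which acts in the dermomyotome, stood 6.44 log2 units higher in tdTom+ and 6.70 in tdTom- cells. Meox2 stood 6.50 and 6.55 log2 units higher, Wfdc21, a small secreted protein, 5.81 and 6.26, and Uncx 5.47 and 6.15. Sim1 stood 5.21 and 5.18 log2 units higher, Tbx18 4.64 and 4.69, and Foxd2 4.61 and 4.48. Of the genes at least 2-fold higher in tdTom- cells that reached the minimum in both fractions, 252 of 353 (71.4%) were so in tdTom+ cells too.

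Presomitic cells, those with 8 or more UMIs of Tbx6, Dll3 and Hes7 and the same globin limit, numbered 189 in tdTom+ and 278 in tdTom- and were the closest tissue in development. Here 2.89% of genes were at least 2-fold higher in tdTom+ somitic cells and 2.98% in tdTom- somitic cells, and 2.49% and 2.78% were at least 2-fold lower. Foxd2 stood 5.01 and 5.02 log2 units higher, Itih5, a protein of the hyaluronan matrix, 4.87 and 4.36, and Flrt2, a membrane protein of cell adhesion, 3.80 and 4.58.

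The genes that were lower than in presomitic cells included Fgf and Wnt signals of the tail end. The values are descriptions, since most genes of the presomitic list reached 100 UMIs only through the presomitic cells, where they are high, and Tbx6, Dll3 and Hes7 separated the groups. Fgf17 stood at 5.95 and 8.36 CPM, against 131 and 137 CPM in presomitic cells. Cyp26a1, which breaks down retinoic acid, stood at 8.57 and 6.83 CPM against 112 and 148 CPM. Wnt3a had 10 and 2 UMIs in somitic cells against 89 and 118, log2 differences of -3.71 (-4.82 to -2.76) and -6.10 (-9.17 to -4.22). Msgn1, the master factor of presomitic fate, had 1 and 3 UMIs. Neither the 16 S-phase nor the 16 G2/M genes held a member past 2-fold in either fraction. Of all genes only 2.89% and 2.98% were higher and 2.49% and 2.78% lower, so nothing about the cell cycle is read from this count.

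Mesoderm with Twist1 and Tbx1, a factor of pharyngeal and head mesoderm, served as a comparison outside the paraxial segments. It was taken as cells with at least 2 UMIs each of Tbx1 and Twist1, at most 2 of Meox1 and at most 1 of Epcam, and numbered 144 and 152 cells. Against it 1.58% and 1.97% of genes were at least 2-fold higher in somitic cells of tdTom+ and tdTom-, and 0.996% and 1.33% were at least 2-fold lower. Pax3 was 3.62 and 4.42 log2 units higher, Aldh1a2 3.88 and 4.26, and Fgf18, an Fgf ligand, 5.21 and 4.86. Isl1, a factor of the second heart field, was lower, with log2 differences of -3.68 and -2.77, and so was Kdr, the Vegf receptor, with -2.60 and -2.73.

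The somitic cells were then ordered by how many presomitic transcripts they still held. The Tbx6, Dll3 and Hes7 sum was 0 in 232 tdTom+ (77.6%) and 239 tdTom- cells (72.6%), 1 to 2 in 45 (15.1%) and 60 (18.2%), and 3 to 7 in 22 (7.36%) and 30 (9.12%). The tdTom+ cells with 3 to 7 were deeper than the others, with a median of 28510 spliced UMIs against 16056 at a sum of 0, whereas tdTom- cells had medians of 15061 and 15360. The 10 genes of the presomitic list outside the rule summed to 56.9, 204 and 309 CPM along these classes in tdTom+, and to 1014 CPM in presomitic cells. In tdTom- they summed to 71.7, 81.0, 409 and 1134 CPM. Cells with 3 to 7 stood 2.44 log2 units (2.15 to 2.73) above those with 0 in tdTom+ and 2.51 (2.26 to 2.76) in tdTom-. In tdTom+ the difference was 1.75 without the cells called doublets.

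Several genes of the somite took the opposite course along the same classes. Fst stood at 529, 406 and 136 CPM in tdTom+ and at 487, 331 and 108 CPM in tdTom-, and at 69.4 and 57.9 CPM in presomitic cells. Twist1 stood at 419, 398 and 230 CPM in tdTom+ and 394, 313 and 173 CPM in tdTom-. Rdh10, which makes the precursor of retinoic acid, went from 64.1 to 13.7 CPM between sums of 0 and of 3 to 7 in tdTom+, and from 60.9 to 10.1 CPM in tdTom-. Cdh11, a mesenchymal cadherin, went from 172 to 58.3 CPM and from 147 to 38.9 CPM. These genes were all lowest in the cells with the most presomitic transcripts.

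Foxc2 and Pax3 did not follow that path. Foxc2 stood at 165, 157 and 199 CPM in tdTom+ and at 171, 188 and 205 CPM in tdTom-, and at 37.3 and 45.0 CPM in presomitic cells. Pax3 stood at 70.1 and 70.3 CPM in tdTom+ cells with sums of 0 and of 3 to 7, and at 79.8 and 69.4 CPM in tdTom- cells. Aldh1a2 was highest in the middle class of both fractions, at 540 and 704 CPM, above 385 and 437 CPM at a sum of 0.

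Lef1, a Wnt effector, and Cited1, a transcriptional co-regulator, went the other way. Lef1 stood at 72.7, 120 and 280 CPM in tdTom+ and at 76.4, 128 and 291 CPM in tdTom-, close to the presomitic 345 and 337 CPM. Cited1 stood at 76.6, 131 and 336 CPM and at 65.8, 120 and 382 CPM, against 1086 and 1126 CPM in presomitic cells.

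**Figure D2:**
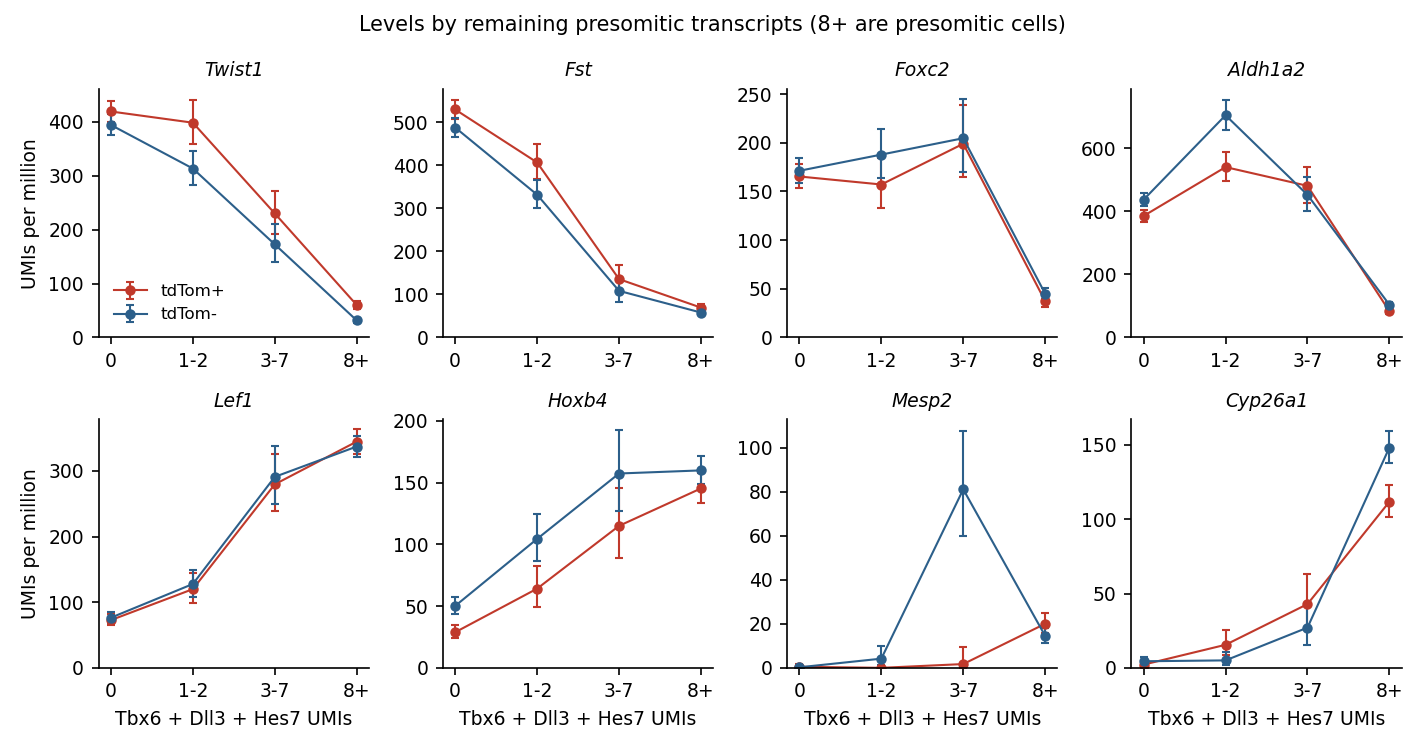
Level in CPM of 8 genes against the Tbx6, Dll3 and Hes7 UMIs of the cells, with tdTom+ in red, tdTom- in blue and exact Poisson 95% intervals. The classes 0, 1-2 and 3-7 are somitic cells and 8+ are presomitic cells. Fst and Twist1 are lowest at the right, Lef1 and Cyp26a1 highest, Aldh1a2 is highest at 1-2, and Mesp2 peaks at 3-7 in tdTom- only.

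Pcdh8, Cer1 and Notch1, named here after their values were seen, were highest in the cells with 3 to 7 presomitic UMIs in both fractions. Pcdh8, a protocadherin of the forming boundary, stood at 54.9 CPM there in tdTom+ and at 125 CPM in tdTom-, against 26.2 and 25.9 CPM in presomitic cells. Cer1, a secreted inhibitor, stood at 36.0 and 44.0 CPM there against 3.12 and 3.19 CPM at a sum of 0. Notch1 stood at 115 and 181 CPM against 84.6 and 82.6 CPM in presomitic cells. The 16 genes of the segment list, which holds Pcdh8 and Cer1 but not Notch1, summed to 353 CPM in this class in tdTom+ against 361 CPM in presomitic cells, and to 800 against 400 CPM in tdTom-. The list as a whole was thus highest in this class in tdTom- only. Dll1, a Notch ligand, was lower in this class than in presomitic cells in both fractions, at 34.3 against 92.5 CPM and at 62.6 against 96.9 CPM.

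Mesp2 and Ripply2, the boundary factor and its repressor, differed between the fractions in this class, though both stayed below 100 UMIs. Mesp2 had 3 UMIs in 3 tdTom+ somitic cells and 54 UMIs in 10 tdTom- cells, 21 of them in 1 cell. Of the 10 tdTom- cells, 7 had a presomitic sum of 3 to 7, where the level was 81.2 CPM (1.72 CPM in tdTom+). Ripply2 had 12 UMIs in 2 tdTom+ and 40 UMIs in 8 tdTom- somitic cells, and Lfng, the clock glycosyltransferase, 31 and 69 UMIs. Of the Ripply2 UMIs, 8 of 12 and 19 of 40 lay in 1 cell. Over all somitic cells the log2 difference of tdTom+ over tdTom- was -4.13 for Mesp2 (-6.46 to -2.51), -1.70 for Ripply2 (-2.77 to -0.74) and -1.12 for Lfng (-1.78 to -0.49).

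These counts rest on few cells and on where the rule ends. In presomitic cells Mesp2 had 78 UMIs in 13 tdTom+ cells and 73 UMIs in 18 tdTom- cells, so that tdTom+ cells did hold the transcript. Of those cells, 8 tdTom+ and 14 tdTom- also met the limits on Meox1 and Tcf15. Ripply2 had 74 and 106 UMIs in presomitic cells. With the presomitic sum held below 3, the Mesp2 difference was -1.55, and Ripply2 and Lfng were 0.23 and 0.04 log2 units higher in tdTom+ somitic cells.

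The promoters of Mesp2 and Ripply2 are shown since both genes mark the same forming segment and had their highest tdTom- levels in the same class of cells. They run from 250 bases before to 50 after the RefSeq start in GRCm38.p6, and capitals mark the T-box letters AGGTGT or their reverse complement ACACCT.
Mesp2 chr7:79810477-79810776, plus strand: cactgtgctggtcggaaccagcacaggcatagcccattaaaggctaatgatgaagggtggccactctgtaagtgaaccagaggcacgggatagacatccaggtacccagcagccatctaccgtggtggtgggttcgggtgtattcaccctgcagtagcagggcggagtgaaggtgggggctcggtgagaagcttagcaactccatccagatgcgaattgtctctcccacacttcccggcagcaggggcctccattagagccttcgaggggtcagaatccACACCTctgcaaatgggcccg
Ripply2 chr9:87015287-87015586, plus strand: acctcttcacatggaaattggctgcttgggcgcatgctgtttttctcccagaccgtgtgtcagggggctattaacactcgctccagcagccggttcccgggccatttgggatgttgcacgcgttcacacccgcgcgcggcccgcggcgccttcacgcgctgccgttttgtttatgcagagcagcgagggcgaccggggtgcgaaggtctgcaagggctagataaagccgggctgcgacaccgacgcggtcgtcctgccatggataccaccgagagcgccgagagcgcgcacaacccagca
The Mesp2 window holds the letters 1 time, 29 bases after the start, and the Ripply2 window 0 times. Both strands were searched, and 13.8% of 32544 promoters of the same length held the letters. Windows for Meox1, Tcf15 and Foxc2 were not used here.

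Uncx and Tbx18 divided the somitic cells. Uncx stood at 20.8 and 33.3 CPM, with 119 and 195 UMIs, and was found in 16.7% of the cells of each fraction. Tbx18 stood at 30.3 and 31.1 CPM and was found in 33.4% of the cells of each fraction. A UMI of both was found in 7 tdTom+ and 4 tdTom- cells, where 16.7 and 18.4 cells would hold both if the genes were independent. Uncx cells, with at least 2 Uncx UMIs and 0 of Tbx18, numbered 22 in tdTom+ (7.36%, 4.67 to 10.9) and 34 in tdTom- (10.3%, 7.26 to 14.1). Tbx18 cells, taken in the same way, numbered 40 (13.4%, 9.73 to 17.8) and 41 (12.5%, 9.09 to 16.5). Most cells held too few UMIs of either gene to be placed.

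Genes were ranked between Uncx and Tbx18 cells of the tdTom- fraction and then read in tdTom+ cells, which the ranking had not used. Of the 10 genes ranked highest in Uncx cells, 9 were also higher in tdTom+ Uncx cells, and of the 10 ranked highest in Tbx18 cells, 7 were also higher in tdTom+ Tbx18 cells. Over all 3573 genes with at least 50 UMIs in each fraction, 57.5% had the same direction in both. The ranked genes needed 50 UMIs in tdTom- only, so that share comes from an unlike set. Etv2, for example, had 1 and 4 UMIs in the Uncx and Tbx18 cells of tdTom+. Igfbp5, a binding protein of insulin-like growth factors, stood at 151 and 84.5 CPM in Uncx cells against 34.9 and 18.2 CPM in Tbx18 cells. It was thus 2.11 (1.47 to 2.78) and 2.22 (1.36 to 3.18) log2 units higher in Uncx cells. Aldoc, an aldolase of glycolysis, was 1.71 and 1.58 log2 units higher, Foxb1, a forkhead factor, 1.09 and 1.42, and Dmrt2 0.89 and 1.68.

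On the Tbx18 side Snai1, a repressor of epithelial genes, stood at 45.3 and 58.4 CPM in Tbx18 cells, against 8.6 and 16.0 CPM in Uncx cells. The log2 difference of Uncx over Tbx18 cells was -2.40 (-4.34 to -0.93) and -1.86 (-2.96 to -0.89). It was -1.46 and -1.52 for Traf3ip2, a signalling adaptor, and -1.0 and -1.42 for Ets1, an endothelial and mesenchymal factor. Other genes of this ranking came from single cells. Within the tdTom- Tbx18 cells, 60 of the 62 Pyy UMIs lay in 1 cell, and 90 of the 92 UMIs of Etv2, the endothelial factor, also lay in 1 cell. Of the 253 Cdkn1c UMIs in these cells, 135 lay in 1 cell. In tdTom+ the intervals of Wfdc21, Prkar2b, Atf1, Npepl1, Fjx1 and Fkbp11, ranked on the Uncx side, included 0. So did those of Etv2, Cdx4, Cdx2, Foxd2, Gadd45g and Cdkn1c, ranked on the Tbx18 side. Cdkn1c had 0 and 6 UMIs in the Uncx and Tbx18 cells of tdTom+.

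Of the fixed lists, Efnb2, the ephrin of somite boundaries, was 2.00 (0.97 to 3.12) and 1.41 (0.34 to 2.57) log2 units higher in Uncx cells. Aldh1a2 was 0.76 and 0.45 log2 units higher there. Col2a1 and Twist1 were lower, with -1.37 (-2.35 to -0.49) and -1.79 (-3.03 to -0.71) for Col2a1 and -0.37 and -0.66 for Twist1. Foxc2 differed by 0.13 (-0.26 to 0.51) and -0.03 (-0.38 to 0.32), intervals that hold 0. Meox2 had opposite directions in the fractions, with -1.60 in tdTom+ and 0.74 in tdTom-, a difference that was not tested.

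**Figure D3:**
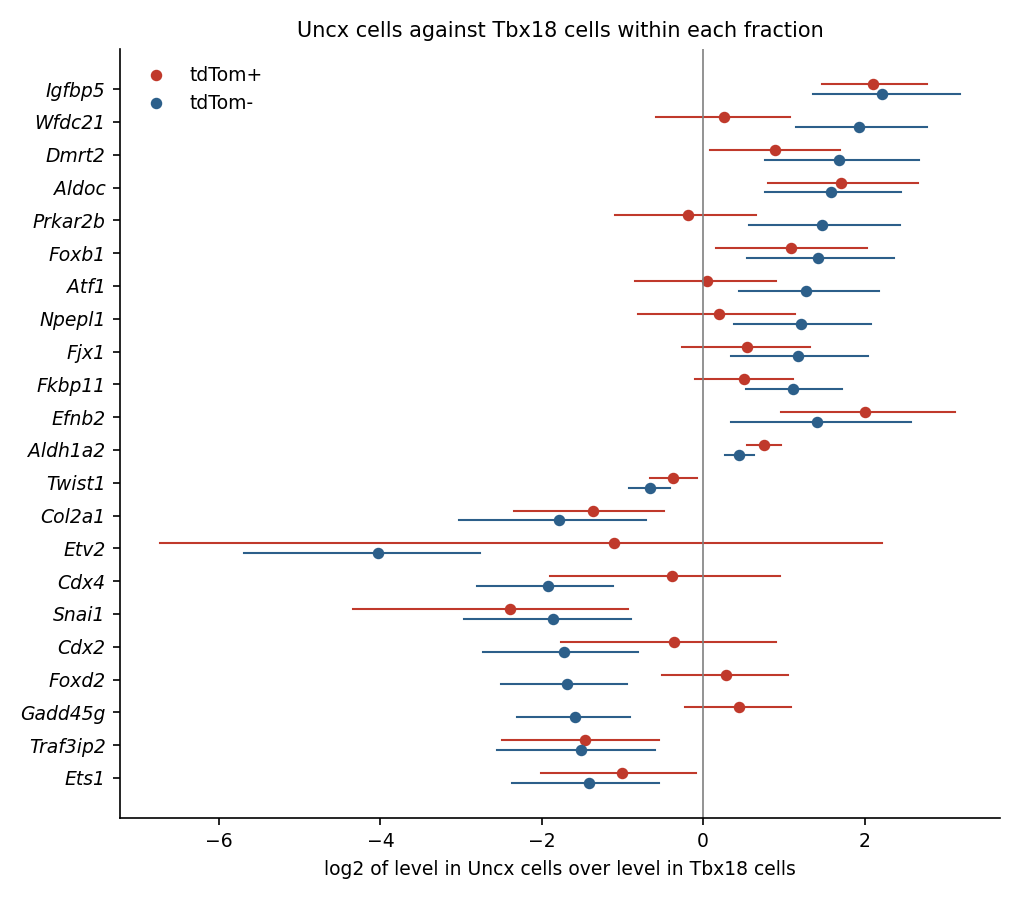
Log2 of the level in Uncx cells over that in Tbx18 cells, with exact 95% counting intervals, in tdTom+ (red) and tdTom- (blue). Genes from Igfbp5 to Fkbp11 and from Etv2 to Ets1 were ranked in tdTom-, and Efnb2 to Col2a1 come from the fixed lists. Igfbp5, Aldoc, Efnb2, Snai1 and Traf3ip2 lie on the same side of 0 in both fractions, whereas Foxd2 and Gadd45g do not. Pyy and Cdkn1c, each with 0 UMIs in one group, are not drawn.

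Of the Hox genes, which give axial level, the anterior groups 1 and 2 had the highest sums of spliced UMIs. Summed over their genes, paralog group 1 stood at 137 and 141 CPM, group 2 at 107 and 118 CPM, and group 4 at 50.4 and 82.6 CPM. Group 9 stood at 33.2 and 40.4 CPM against 294 and 334 CPM in presomitic cells, and groups 12 and 13 had at most 3 UMIs. After thinning, 84.3% of the 286 tdTom+ and 81.9% of the 315 tdTom- cells held 0 UMIs of groups 6 to 9. At least 3 such UMIs were found in 14 tdTom+ (4.90%, 2.70 to 8.08) and 25 tdTom- cells (7.94%, 5.20 to 11.5). In tdTom+ the share was 1.89% without the cells called doublets. Spliced UMIs of several Hox genes were far below the totals from Cell Ranger (74 against 5641 for Hoxa5 and 3598 against 27146 for Hoxc8 over all cells), so a level near 0 of these is not absence and the order of the groups holds for spliced UMIs only.

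Each Hox group from 1 to 9, anterior as well as posterior, was higher at a presomitic sum of 3 to 7 than at 0 in both fractions. Group 1 went from 125 to 208 CPM in tdTom+ and from 121 to 217 CPM in tdTom-. Group 8 stood at 12.2 CPM at a presomitic sum of 0 in tdTom+ and at 84.0 CPM at 3 to 7, and at 11.8 and 103 CPM in tdTom-. Hoxb4 stood at 28.8, 64.1 and 115 CPM along the classes in tdTom+ and at 50.1, 104 and 157 CPM in tdTom-. Cells with at least 3 UMIs of groups 6 to 9 held less Meox2, at 12.8 CPM against 44.6 CPM in tdTom+ cells with 0, and at 14.9 against 52.5 CPM in tdTom-. Foxc2 stood at 113 against 171 CPM and at 109 against 187 CPM. The cells with at least 3 were deeper, with medians of 29766 against 16164 spliced UMIs in tdTom+ and 22206 against 15531 in tdTom-. Some markers of other tissues were higher in them, with Foxf1, a lateral mesoderm factor, at 66.3 against 9.79 CPM and 29.8 against 2.90 CPM, and Epcam, an epithelial adhesion protein, at 96.2 against 5.46 CPM and 74.6 against 14.3 CPM. Others of the same lists were lower, with the cardiac gene Myl7 at 10.7 against 34.4 CPM and 6.63 against 199 CPM. Of the 929 tdTom- Myl7 UMIs, however, 713 lay in 1 cell of the class with 0. The part of other tissues and of depth in these differences was not tested.

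**Figure D4:**
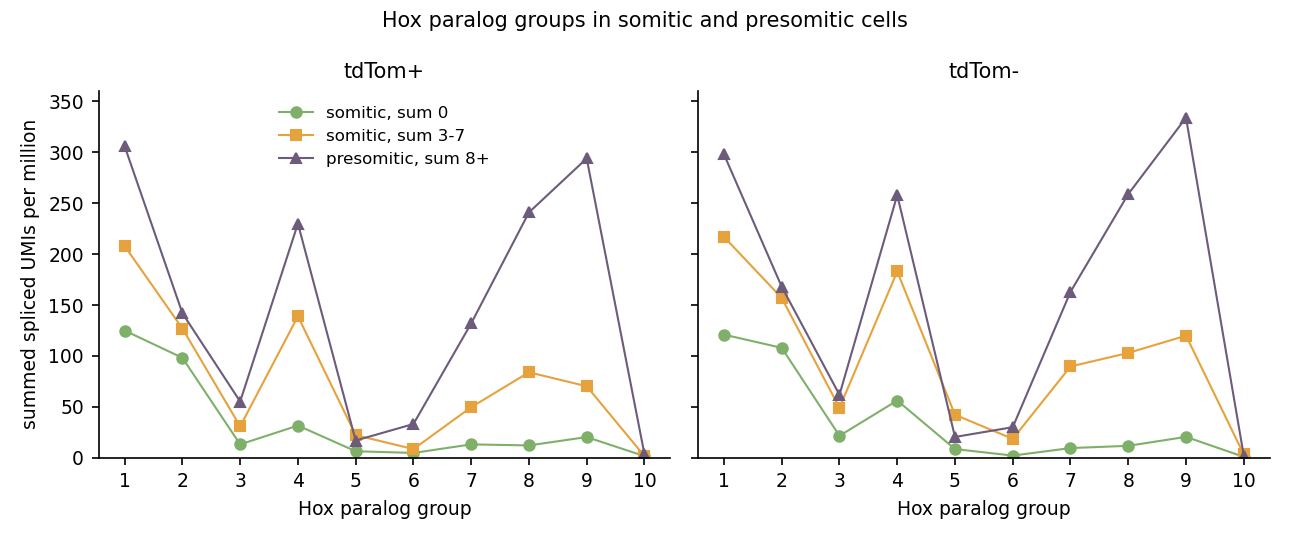
CPM summed over the genes of each Hox paralog group, from 1 to 10, in tdTom+ (left) and tdTom- (right). Green circles are somitic cells with a presomitic sum of 0, orange squares those with 3 to 7 and purple triangles presomitic cells. Groups 7 to 9 are low in the first, intermediate in the second and highest in presomitic cells. No error bars are drawn.

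Groups 3 to 5 were lower in tdTom+ than in tdTom- somitic cells. The log2 difference was -0.82 for group 3 (-1.20 to -0.45), -0.71 for group 4 (-0.93 to -0.50) and -0.75 for group 5 (-1.28 to -0.24). Group 9 differed by -0.28 (-0.57 to -0.00), and the intervals of groups 1, 2 and 6 to 8 included 0. Most of group 4 was Hoxb4, which stood at 43.6 and 72.0 CPM, a difference of -0.73 (-0.96 to -0.50). In presomitic, Tbx1 and neural cells Hoxb4 differed by -0.14, -0.23 and 0.05, with intervals that include 0. Hoxb3 held 76 of the 94 and 124 of the 170 UMIs of group 3, and Hoxb5 42 of 51 and 71 of 88 of group 5. Spliced UMIs of Hoxa3 and Hoxa4 over all cells were far below the Cell Ranger totals (23 against 3444 and 4 against 1665). The part of axial level in the differences of groups 3 to 5 was not tested.

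Few genes of the somitic cells passed 2-fold between the fractions. Of 7436 genes with at least 100 summed UMIs, 19 were at least 2-fold higher in tdTom+ (0.256%) and 39 at least 2-fold lower (0.524%), with a median log2 difference of -0.02. Of the 9 somitic markers counted 0 passed 2-fold in either direction, with a median of -0.22, where the shares of all genes are also close to 0, so nothing about the markers is read from it. The 9 include Meox1 and Tcf15, on which the cells of both fractions were selected. Foxc2 differed by -0.09 (-0.22 to 0.04), Tbx18 by -0.04 (-0.35 to 0.27), Aldh1a2 by -0.23 (-0.31 to -0.15) and Uncx by -0.68 (-1.02 to -0.34). Fst and Twist1 were 0.17 and 0.16 log2 units higher in tdTom+. The retinoic acid list had a median of -0.02 over 10 genes, with Crabp2, a binding protein of retinoic acid, at -0.51 (-0.67 to -0.35). The S-phase list had a median of -0.06 and the G2/M list of 0.01. In each 0 of 16 genes passed 2-fold, where the shares of all genes are also close to 0.

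En1, a homeobox factor of the central dermomyotome, had 16 and 62 UMIs in 8 and 7 cells, a difference of -1.92 (-2.81 to -1.11) that was 3.05 without the cells called doublets. Ccna2, a cyclin of S and G2 phase, stood at 100 and 185 CPM, a difference of -0.88 (-1.03 to -0.74). Ccna2 was also lower in tdTom+ presomitic (-0.74), Tbx1 (-0.73) and neural cells (-0.76).

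Of the segment list 2 of 9 counted genes, Mesp1 and Lfng, were at least 2-fold lower in tdTom+, as was Lfng among 8 of the clock list, where 0.524% of all genes were. Cells with 3 to 7 presomitic UMIs held 77 of the 91 tdTom- UMIs of Mesp1. With those cells left out Mesp1 differed by -0.77 and Lfng by 0.04. Mesp1 had 19 UMIs in tdTom+ and 91 in tdTom-, of which 30 were in 1 cell. Of 5 counted presomitic genes, T, the brachyury factor of the tail bud, was at least 2-fold higher in tdTom+, as were 0.256% of all genes. T had 105 UMIs against 45, and 54 of the 105 lay in 1 cell. The median of the 5 genes was -0.32. In presomitic, Tbx1 and neural cells T differed by -0.18, -2.20 and 0.68.

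Other large differences lay outside the paraxial lists. Xist, the RNA of the silenced X chromosome in females, stood at 8.22 and 359 CPM, and all 3 counted Y-linked genes were at least 2-fold higher in tdTom+. The 47 Xist UMIs of tdTom+ lay in 6 cells, with 21 of the 47 in 1 cell, and their source was not tested. Of 240 X-linked genes, 1 passed 2-fold, which was Xist itself. Of all genes 0.256% were at least 2-fold higher and 0.524% lower, so nothing about X-linked genes is read from this count. Grb10, a growth inhibitor, stood at 9.10 and 349 CPM and Cdkn1c, a cell cycle inhibitor, at 4.72 and 197 CPM, both imprinted genes expressed from the maternal copy in most tissues. Impact and Usp29, expressed from the paternal copy, were 1.34 and 1.33 log2 units higher in tdTom+. Erdr1, annotated to the Y chromosome and so among the 3 counted Y-linked genes, was 1.68 log2 units higher. Xist, Grb10, Cdkn1c, Impact, Usp29 and Erdr1 differed in the same direction in presomitic, Tbx1 and neural cells as well.

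Genes listed for other tissues were summed as well, and some sums differed between the fractions. The neural list summed to 94.1 and 98.0 CPM and the cranial and pharyngeal mesoderm list to 347 and 353 CPM. Foxd1, found in most somitic cells, held 1626 of the 1981 and 1754 of the 2067 UMIs of the latter list. That sum is thus not a measure of transcripts from another tissue. Neural crest genes summed to 47.1 and 51.0 CPM, intermediate mesoderm genes to 54.9 and 60.1 CPM and endothelial genes to 22.4 and 15.2 CPM. Ets1, named above on the Tbx18 side, held 223 of the 269 and 228 of the 299 neural crest UMIs. The 10 genes of the blood list summed to 202 and 825 CPM. Hba-x, an embryonic globin, stood at 53.4 and 422 CPM and Hbb-y at 13.8 and 119 CPM, and Hba-x was also lower in tdTom+ neural cells. The rule used both genes. Cardiac genes summed to 122 and 264 CPM, with 873 of the tdTom- UMIs in 1 cell, and endoderm genes to 102 and 40.1 CPM, with 422 of the tdTom+ UMIs in 1 cell.

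Several of the top differences rested on single cells. Apoa1, Ttr and Rbp4, secreted proteins of visceral endoderm, were 4.71, 4.13 and 3.15 log2 units higher in tdTom+, with 96.1%, 96.6% and 88.5% of their UMIs in 1 cell. Myl7, a myosin of the atrium, was lower, with a log2 difference of -2.46 and with 713 of 929 tdTom- UMIs in 1 cell. Without the 7 tdTom+ and 12 tdTom- members that held at least 20 UMIs of the cardiac, endoderm, endothelial or neural crest list, Apoa1 differed by 0.17, Ttr by -0.62, Rbp4 by -0.12 and Myl7 by 0.76. Spi1, the myeloid factor PU.1, had 34 UMIs in 6 tdTom+ somitic cells, 25 of them in 1 cell, and 0 in tdTom- cells.

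**Figure D5:**
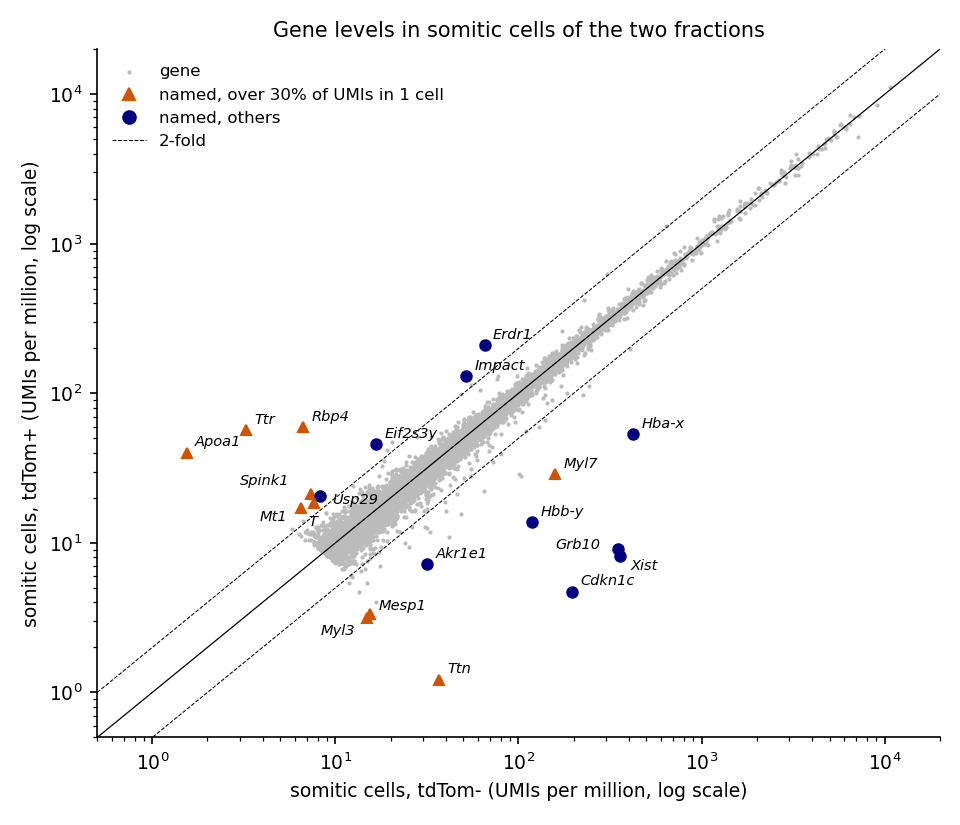
Level in tdTom+ against tdTom- somitic cells for 7436 genes, in CPM on log axes, with equal levels on the solid line and 2-fold on the dashed lines. Named genes have the largest differences, and orange triangles mark those with over 30% of the UMIs of the higher fraction in 1 cell. Most genes lie between the dashed lines, with 19 above and 39 below them.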

How the data were processed

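Both libraries were sequenced as 10x Genomics droplets. Reads were mapped by the authors to mm10 in Cell Ranger 3.0.2, with an Ensembl annotation that included tdTomato. Cells were called with emptyDrops, low-quality cells were removed by total counts and mitochondrial share, and spliced and unspliced molecules were counted with velocyto. The deposited tables hold more cells of each fraction than the study states as passing quality control with a cell type, and all of them were used, down to 601 and 379 spliced UMIs per cell (3183 and 3062 among somitic cells). The deposited UMI counts are raw, and the percent of mitochondrial UMIs per cell was computed by the authors from Cell Ranger counts.

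Spliced UMIs were summed over the somitic cells of a fraction and divided by their total. Levels have exact Poisson, shares Clopper-Pearson and log2 differences exact conditional 95% intervals, all of which cover counting error only. Only genes with at least 100 UMIs were counted past 2-fold, a gene at 0 being set to a floor of 3. Doublets were called with Scrublet in scanpy 1.11.5 and left in. Comparisons had 1 library per fraction and no test. Named genes were those of the lists, the 10 with the largest difference in each direction between fractions, against presomitic and Tbx1 cells and between Uncx and Tbx18 cells, and the 15 highest against all other cells, although some genes that met this rule are not reported here. Members and lists were chosen with earlier results of these data known. Scripts used Python 3.11.15, numpy 2.4.6, scipy 1.17.1 and pandas 2.3.3 and were tested on simulated data.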

Additional observations from a re-analysis of the deposited data

How the results depend on the processing

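Over 117 results and 15 alternatives, 855 values were computed. Of the values of main results, 25 were classed as moved and 78 as the same. Of the other values, 51 were classed as moved, 695 as the same and 6, all log2 differences, as reversed in direction. Counts and shares have no direction to reverse, so the 6 are not a rate over all 855 values. No paired analysis was possible because each fraction is 1 library, and counting intervals say nothing of the spread between embryos. Mesp2, Ripply2, Pax1 and Myf5 rest on few UMIs.

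Without doublet calls the difference of En1, reported as -1.92, was 3.05, the presomitic list of tdTom+ cells stood 1.75 log2 units higher at a sum of 3 to 7 than at 0, and 1.89% of tdTom+ cells held at least 3 UMIs of Hox groups 6 to 9. Below a presomitic sum of 3, Mesp2 differed by -1.55, Ripply2 by 0.23 and Lfng by 0.04. Without the members holding another type's UMIs, an alternative chosen after seeing the data, Ttr differed by -0.62, Rbp4 by -0.12 and Myl7 by 0.76. With Meox1 and Tcf15 at 2 or more, 3.76% of tdTom+ cells were somitic and the presomitic list of tdTom+ cells differed by 2.10. At 5 or more the shares were 2.55% and 2.84%, the tdTom- list differed by 2.79, and Foxc2 of tdTom- cells stood 4.16 log2 units above all other cells. Thinning all cells before the rule gave shares of 2.33% and 2.90%. With somitic cells thinned, 8 genes were at least 2-fold higher in tdTom+. A minimum of 20 UMIs gave 137 genes higher and 203 lower, and a minimum of 1 gave 896 and 644. Lower minimums count more genes by construction, and the genes they add have few UMIs. How many genes were counted at these minimums is not given here. The counts are thus not shares and are not compared with the 19 higher and 39 lower of 7436 genes. Limits of 1 UMI gave 43 Uncx cells in tdTom+ and 93 and 106 Tbx18 cells, and limits of 3 gave 14, 14 and 18. At their own depth 9.36% and 12.5% of cells held the Hox UMIs and 33.4% and 36.5% at least 2 Pax3 UMIs. Thinned and stricter settings use fewer UMIs or cells by construction and unthinned or looser ones more, and for the other changes the cause was not tested.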

Other observations

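Somitic cells ordered by their UMIs of Hox groups 6 to 9 after thinning (0, 1 to 2, and 3 or more) differed in further genes. Msx1, a homeobox factor, stood at 13.2, 63.7 and 145 CPM in tdTom+ cells and at 6.48, 66.2 and 134 CPM in tdTom- cells. Fst stood at 518, 288 and 237 CPM and at 480, 236 and 149 CPM along the same classes. Tbx1 was lowest in the last class of both fractions, with 6.41 and 1.66 CPM against 42.1 and 30.8 CPM in the first. Some markers of other tissues were also higher in the last class than in the first, Foxf1 by 2.76 and 3.36 log2 units, Hand2 by 1.85 and 3.38 and Epcam by 4.14 and 2.38. Others of the same lists were lower there, with log2 differences of -1.68 and -4.91 for Myl7 and of -5.09 in tdTom+ for Ttr. These rest largely on single cells of the first class. One cell held 713 of the 929 tdTom- Myl7 UMIs, and another held 313 of the 324 tdTom+ Ttr UMIs. The cells of the last class were deeper, with medians of 29766 and 22206 spliced UMIs against 16164 and 15531. In tdTom+ the last class held 4.90% of cells, or 1.89% without the cells called doublets. The part of other tissues, depth and doublets in these differences was not tested.

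Genes that respond to Hedgehog and Bmp signals were found in both fractions at close levels. Ptch1, the Hedgehog receptor and a target of the pathway, stood at 165 CPM in tdTom+ and at 151 CPM in tdTom- cells, a difference of 0.13 (-0.00 to 0.26). Id1, a target of Bmp, stood at 184 and 167 CPM. Pdgfra, the receptor that marks mesenchyme of the somite, stood at 69.4 and 70.1 CPM, whereas its ligand Pdgfa stood at 24.3 and 42.3 CPM, a difference of -0.80 (-1.11 to -0.49).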
